A study of Mus musculus with 4 samples.

Results

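The genes described here are interferon-induced genes and the transcription factors that act in the interferon response, followed through the nuclei of mouse heart ventricles. They were chosen by symbol: the Ifi, Ifit, Ifitm, Irf, Oas and Gbp families and a set of single genes that includes Stat2, Isg15, Isg20, Usp18, Rsad2, Bst2, Rnf213, Trim30a, Xaf1, Parp14 and Zbp1. Of the 25906 genes in the count matrices, 75 matched, and 71 of these had at least 20 unique molecular identifiers (UMIs, counts of captured RNA molecules) over the 4 libraries. The other 4 were Oas1f with 9 UMIs, Ifi44l with 7, Oas1d with 3 and Oas1e with 1. The 71 comprise 11 transcription factors, 10 guanylate-binding proteins, 11 PYHIN proteins, 9 oligoadenylate synthetases, 6 tetratricopeptide proteins, 8 membrane proteins, 2 genes of a ubiquitin-like system and 14 other effectors. A choice by symbol also takes in Ifitm5, known from bone, and Ifitm10, whose names mark family membership rather than a response to interferon.

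Interferons are secreted proteins that bind receptors on the cell surface. The receptors activate Janus kinases, which phosphorylate STAT proteins. STAT2 and IRF9 take part in a complex that binds the interferon-stimulated response element (ISRE), while STAT pairs formed after interferon gamma bind the gamma-activated site (GAS). The induced proteins degrade or sense foreign nucleic acids, disrupt the compartments of pathogens and raise antigen presentation, and in the infarcted heart an interferon response of macrophages is known from earlier work.

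Hearts came from C57BL/6J wild-type mice of both sexes, 8 weeks old at the start, which either had voluntary access to running wheels for 16 weeks or stayed sedentary. The sedentary and the running library each pool the ventricles of 2 hearts without infarct. The sedentary infarct and the running infarct library each pool 4 hearts taken 2 weeks after surgical myocardial infarction. The ventricles were snap frozen, nuclei were sorted by their Hoechst stain, and each group was loaded into 1 well of a 10x Genomics 3' assay, so every group has 1 library (n = 1) and no difference could be tested against the spread between animals. Values are always given in the order sedentary, running, sedentary infarct, running infarct.

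The libraries held 3243 to 6253 barcodes and 26170995 to 37533722 UMIs, with a median of 2910.5 to 4214 UMIs per barcode, and any pair of libraries shared 2 to 12 barcode sequences. After filtering, 3124 to 5832 nuclei remained per library, of which 21.8 to 27.3% stayed in clusters without a name. Cell classes were named from marker genes, so that "fibroblast" here stands for fibroblast-like nuclei, and "mural" joins pericyte-like and smooth muscle-like nuclei. In the cardiomyocyte, fibroblast, vascular endothelial, endocardial, lymphatic endothelial, mesothelial and macrophage classes every marker of the class had a UMI in every library. Cardiomyocyte markers summed to 59622 to 61432 CPM (UMIs scaled to a fixed class total of 1000000) in cardiomyocytes and to 1867 to 5098 CPM in the other 7 classes, where free RNA and remaining mixed nuclei cannot be told apart. Y-positive nuclei, which held 2 or more UMIs from a group of 4 Y-linked genes, made up 33.0, 35.3, 19.4 and 20.4% of the libraries, and within a pool sex and heart cannot be told apart. Intervals in brackets cover 95% and counting error only.

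A promoter of 54 of the 71 genes was found in a table of RefSeq promoters (mouse build GRCm38.p6, 250 bases before to 50 after each start). The ISRE, searched as GAAANNGAAA on both strands with overlapping matches counted, was present for 29 of the 54 genes, or 53.7%. It was present for 3.99% of all 27025 genes of the table and in 3.44% of its 32851 promoters. The GAS, searched as TTCNNNGAA, which reads the same on both strands, was present for 13 genes, or 24.1%, against 9.55% of all genes and 8.3% of all promoters, and 6 genes held both. The ISRE was found for all 4 guanylate-binding proteins in the table (Gbp2, Gbp3, Gbp5 and Gbp7), for 8 of 10 PYHIN genes and for 5 of 6 tetratricopeptide genes. By contrast, 2 of 9 transcription factors had it, Irf2 and Stat2. A match is a run of letters and does not show binding. Windows from the promoters of the 4 guanylate-binding proteins in the table, of 3 PYHIN genes with different patterns, and of the interferon target Isg15 and of Stat2 are shown 5′ to 3′ on the strand of the gene, with ISRE and GAS matches in capitals.
Gbp2, chr3:142620569-142620648, plus strand: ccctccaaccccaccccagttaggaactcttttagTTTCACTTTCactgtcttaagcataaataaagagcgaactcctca
Gbp3, chr3:142559970-142560049, plus strand: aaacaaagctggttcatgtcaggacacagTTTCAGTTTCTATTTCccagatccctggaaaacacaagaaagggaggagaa
Gbp5, chr3:142496734-142496813, plus strand: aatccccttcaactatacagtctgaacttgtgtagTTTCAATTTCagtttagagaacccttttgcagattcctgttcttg
Gbp7, chr3:142530248-142530327, plus strand: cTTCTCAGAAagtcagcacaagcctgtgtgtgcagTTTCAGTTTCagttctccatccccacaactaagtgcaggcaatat
Ifi203, chr1:173942483-173942562, minus strand: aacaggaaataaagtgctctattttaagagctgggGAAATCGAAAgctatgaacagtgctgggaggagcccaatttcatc
Ifi205, chr1:174031706-174031785, minus strand: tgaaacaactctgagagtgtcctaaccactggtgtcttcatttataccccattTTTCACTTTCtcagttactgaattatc
Ifi207, chr1:173741806-173741885, minus strand: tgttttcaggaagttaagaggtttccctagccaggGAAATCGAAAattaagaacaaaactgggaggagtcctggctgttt
Isg15, chr4:156200840-156200919, minus strand: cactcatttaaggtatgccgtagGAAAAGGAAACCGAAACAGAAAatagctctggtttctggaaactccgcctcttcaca
Stat2, chr10:128270248-128270327, plus strand: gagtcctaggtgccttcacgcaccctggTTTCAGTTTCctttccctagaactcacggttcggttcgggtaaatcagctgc
The Gbp7 window holds a GAS ahead of its ISRE, and in the Gbp3 and Isg15 windows several ISRE matches overlap. Ifi203 and Ifi207 share the same 10 letters of their ISRE. The Ifi205 promoter holds 2 ISRE matches, of which the window shows the one after the start. Several families have members on the same chromosome: the 4 guanylate-binding proteins on chromosome 3, 10 PYHIN genes on chromosome 1, 7 oligoadenylate synthetases on chromosome 5 and 6 Ifitm genes on chromosome 7. Oasl1 and Oasl2 lie apart from the Oas1 genes and Oas3, and Ifitm10 lies apart from the other Ifitm genes. Near copies within families (Gbp6 and Gbp10, the PYHIN genes, the Oas1 genes, Ifit3 and Ifit3b, the Ifitm genes) share reads or lose them in counting. The values of single family members are uncertain in that respect.

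Most of these genes were weakly represented in cardiomyocytes and strongly in macrophages and blood vessels. By the median CPM over the 4 libraries, 27 of the 71 genes had their highest level in macrophages, 21 in vascular endothelial nuclei, 9 in mesothelial nuclei, 6 in fibroblasts, 4 in endocardial nuclei, 2 in lymphatic endothelial nuclei and 2 in cardiomyocytes. The count for macrophages was 16 with doublets kept and 14 with mixed clusters named, and that for vascular endothelial nuclei 28 and 27. In both settings, clusters otherwise left unnamed as mixed, by their doublet score, could take a name. With mural nuclei, where none was highest, these are the 8 main classes, those with at least 50 nuclei in every library. Cardiomyocytes had the lowest level for 57. The 71 genes together took 575, 663, 578 and 731 CPM of the cardiomyocyte UMIs, and 4586, 5010, 4306 and 4745 CPM of the macrophage UMIs. The levels of single genes below are compared between classes and libraries, never between genes, since the UMI yield of a gene depends on its transcript.

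**Figure D1:**
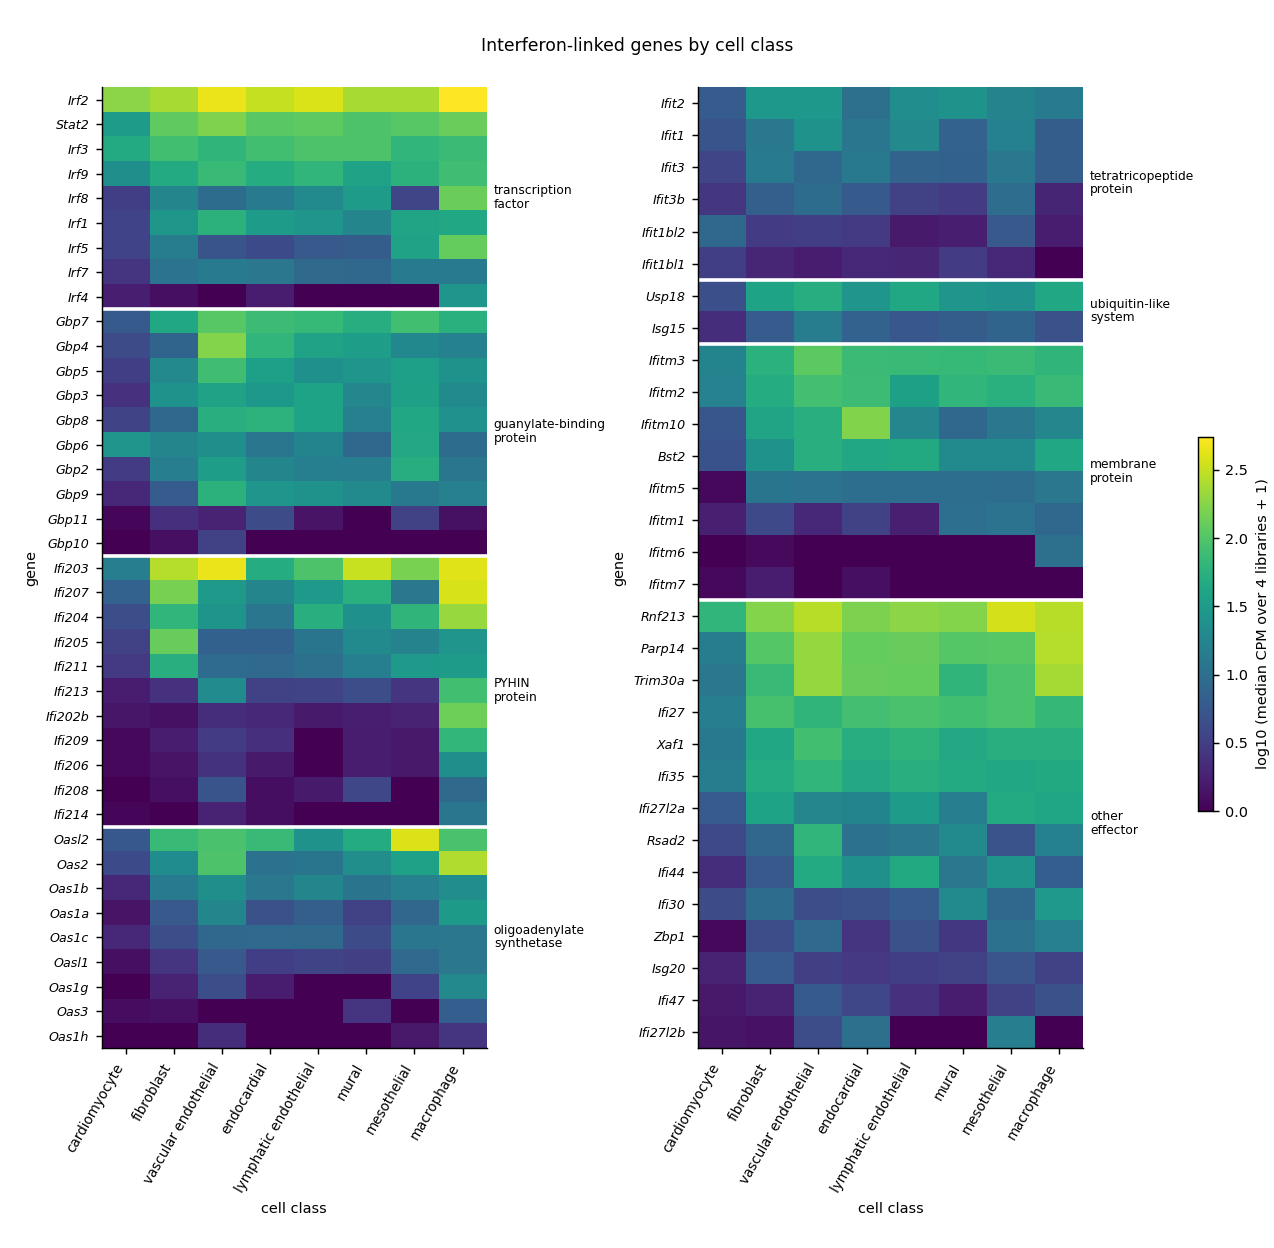
Median level over the 4 libraries of the genes reported here (rows, grouped by role) in 8 cell classes (columns), as log10 of CPM plus 1. The cardiomyocyte column is the darkest for most genes, while Irf2 is bright in every class and Ifi202b, Ifi209 and Irf4 are bright in macrophages only.

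Among the transcription factors, Irf2, a factor that binds the ISRE and can repress it, had 35358 UMIs and was present in every class. Its level was 598, 531, 574 and 518 CPM in macrophages and 451, 458, 460 and 458 CPM in vascular endothelial nuclei, and lowest, at 185, 174, 190 and 184 CPM, in cardiomyocytes. The 4 libraries differed little in these classes. Irf3, which starts interferon transcription after nucleic acids are sensed, was present in every class too. Its median was highest in lymphatic endothelial nuclei, at 102, 90.3, 98.8 and 72 CPM, and lowest in cardiomyocytes, at 47.3, 44, 46.9 and 55.6 CPM.

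Stat2 and Irf9 encode factors that act downstream of the receptors. Stat2 was at 156, 193, 167 and 153 CPM in vascular endothelial nuclei, highest in the running library. Irf9 reached 87.7, 83.9, 57.5 and 73.8 CPM in macrophages and 79.4, 80.9, 53.3 and 63.1 CPM in vascular endothelial nuclei, lower in the infarct libraries of both classes.

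Irf8, a factor of myeloid development, and Irf5, which drives inflammatory genes in macrophages, had their highest level among the 8 main classes in macrophages. Irf8 stood at 80.6, 101, 170 and 166 CPM in macrophages, and the infarct libraries were higher. In the few dendritic nuclei (5, 15, 22 and 42) it was at 1180, 726, 1401 and 626 CPM. Irf5 was at 64, 129, 131 and 119 CPM in macrophages, with the sedentary library alone low, and at 49.9, 38.4, 35 and 32.5 CPM in mesothelial nuclei. Irf4, also known from lymphocytes and macrophage polarisation, was at 30.8, 37.3, 22.2 and 14.3 CPM in macrophages and at 0 to 2.44 CPM in each of the other 7 main classes. Irf1, an activator induced by interferon gamma, was at 58.1, 61.8, 55.5 and 40.5 CPM in vascular endothelial nuclei. Irf7, the amplifier of interferon transcription, was low, at 10.4, 10.8, 24.4 and 14 CPM in vascular endothelial nuclei, where the sedentary infarct library was highest.

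The guanylate-binding proteins, interferon-induced GTPases that attack membranes around pathogens, had their largest sum in vascular endothelial nuclei and their smallest in cardiomyocytes among the 8 main classes of every library. Their 10 UMI counts summed to 567, 998, 543 and 406 CPM in vascular endothelial nuclei, 353, 677, 254 and 262 CPM in endocardial nuclei, 329, 351, 268 and 328 CPM in mesothelial nuclei and 52.1, 53.2, 38.8 and 38.5 CPM in cardiomyocytes. Gbp7, the member with the most UMIs, stood at 123, 175, 88.8 and 78.7 CPM in vascular endothelial nuclei. Gbp4 was at 167, 375, 174 and 118 CPM in the same class, and the running library lay outside the intervals of the others. Gbp6 was at 36.6, 25.9, 25.6 and 17.1 CPM in cardiomyocytes, above its level in vascular endothelial nuclei (23, 50.5, 21.1 and 9.35 CPM) in every library but the running one. Gbp2 and Gbp6 had their highest median in mesothelial nuclei, at 54.1, 89, 27.4 and 46.6 CPM for Gbp2 and 54.1, 40.1, 22.8 and 48.7 CPM for Gbp6.

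The PYHIN proteins, which sense DNA in nucleus and cytosol, divided between fibroblasts, macrophages and endothelium. Ifi203 was at 515, 444, 476 and 393 CPM in vascular endothelial nuclei and at 47.8, 49.7, 53.1 and 36.3 CPM in endocardial nuclei. Every library showed this division between the endothelial classes. Ifi207 was at 304, 410, 346 and 409 CPM in macrophages and at 203, 225, 100 and 74.3 CPM in fibroblasts. Ifi205 was a fibroblast gene, at 197, 198, 54.6 and 54.2 CPM there and at no more than 38.4 CPM in the other 7 main classes, and in the few dendritic nuclei it reached 185 CPM. Ifi202b was a macrophage gene, at 282, 186, 84.9 and 74.5 CPM there and at no more than 3.51 CPM in the other 7.

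Oligoadenylate synthetases make the second messenger that activates RNase L. Oasl2, a member of this family, was highest in mesothelial nuclei, the outer lining of the heart, at 422, 581, 348 and 374 CPM. In the other 7 main classes it reached no more than 128 CPM, in macrophages of the running infarct library. Oas2 was at 285, 270, 252 and 237 CPM in macrophages, even over the libraries, and at 94.8, 91.3, 99.9 and 84.9 CPM in vascular endothelial nuclei.

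Next come genes often used to score an interferon response. Isg15, the ubiquitin-like modifier, had 728 UMIs in all and was at 14.2, 19.6, 12.2 and 7.79 CPM in vascular endothelial nuclei. Usp18, the protease that removes it and restrains the receptor, was at 47.7, 48.6, 57.7 and 51.4 CPM in the same class. Ifit1, a tetratricopeptide protein that binds foreign RNA, was at 29, 25.5, 22.2 and 8.57 CPM there, lowest in the running infarct library. Rsad2, the antiviral enzyme viperin, was at 41.1, 57.9, 77.7 and 67.8 CPM in vascular endothelial nuclei and at no more than 32.5 CPM in the other 7 classes.

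Of the membrane proteins, Ifitm3, which blocks viral entry at endosomes, was at 140, 137, 86.6 and 56.9 CPM in vascular endothelial nuclei, lower in the infarct libraries. Bst2, which tethers virions to the cell surface, was at 59.2, 58.4, 38.9 and 45.2 CPM there. Ifitm10 was highest in endocardial nuclei, at 169, 131, 165 and 195 CPM. Rnf213, a large ubiquitin ligase of vessels and antimicrobial defence, was at 312, 328, 412 and 559 CPM in mesothelial nuclei and 190, 296, 268 and 368 CPM in macrophages. Parp14, an ADP-ribosyltransferase, and Trim30a, a restraint on inflammatory signalling, had their highest levels in macrophages, at 301, 244, 274 and 273 CPM for Parp14 and 228, 231, 244 and 292 CPM for Trim30a. Ifi27 varied little among the non-muscle classes, at 119, 90.8, 92.7 and 92.1 CPM in mesothelial nuclei and 115, 87.3, 84.7 and 86.2 CPM in fibroblasts.

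The remaining genes had smaller counts or are described by their range. Xaf1, a pro-apoptotic factor, was at 80.5, 85.4, 81 and 73.2 CPM in vascular endothelial nuclei, and Ifi35 at 59.2, 71.6, 66.6 and 45.2 CPM. Gbp8 was highest in endocardial nuclei, at 69.3, 93.6, 47.1 and 41.6 CPM. Gbp9 was at 56.4, 67.7, 57.7 and 49.8 CPM in vascular endothelial nuclei. Ifi213 was a macrophage gene, at 47.4, 85.7, 74.5 and 99.1 CPM, lowest in the sedentary library. Ifi211 was highest in fibroblasts, at 63.4, 60.7, 41 and 42.4 CPM, and Ifi27l2a in mesothelial nuclei, at 72.8, 47.1, 30.4 and 46.6 CPM. Macrophages held the highest median of Oas1a, Oas1c, Oas1g, Oas1h, Oas3, Oasl1, Ifi30, Ifi206, Ifi208, Ifi214, Zbp1, Ifitm5 and Ifitm6, between 1.63 and 29.9 CPM. Ifit3 and Isg20 were highest in fibroblasts at medians of 12.3 and 5.08 CPM, and Oas1b, Ifi47 and Gbp10 in vascular endothelial nuclei at 22.5, 4.96 and 2.48 CPM. Mesothelial nuclei were highest for Ifit3b, Ifitm1 and Ifi27l2b at 8.57, 10.2 and 13.8 CPM, and endocardial nuclei for Gbp11 at 3.39 CPM. Cardiomyocytes were highest only for Ifit1bl1 and Ifit1bl2, relatives of Ifit1, at 2.19 and 7.30 CPM. Ifitm7 had 27 UMIs in all and its highest median, 0.646 CPM, in fibroblasts.

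Running was compared with the sedentary state in hearts without infarct. Several classes of the running library held more guanylate-binding protein RNA. The summed family went from 567 (533 to 603) to 998 CPM (955 to 1042) in vascular endothelial, from 353 to 677 CPM in endocardial and from 118 (93.9 to 146) to 298 CPM (262 to 338) in mural nuclei, and from 140 (106 to 180) to 240 CPM (201 to 286) in macrophages. Gbp4 was 2.25-fold higher in vascular endothelial (1.97 to 2.58) and 2.91-fold higher in endocardial nuclei (2.36 to 3.63). To enter, a gene needed 100 UMIs or more in a class when the compared libraries were summed, and it was counted from 1.5-fold. A gene can enter through its high library alone, so the counts describe these libraries and are set beside the share of all genes that entered. In vascular endothelial nuclei 33 of the 71 genes entered, 8 were higher and 0 lower. Among all genes that entered, 3.48% were higher and 2.13% lower, and the median log2 ratio was 0.28 for the interferon-linked genes and 0.02 for all. The 8 were Gbp2, Gbp3, Gbp4, Gbp5, Gbp6, Ifi44, Ifi207 and Oasl2. In endocardial nuclei 25 entered, 6 were higher (Gbp2, Gbp3, Gbp4, Gbp5 and Gbp7 among them) and 0 lower, against 3.20% and 2.47% of all genes, with medians of 0.26 and 0.00.

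Gbp3 in vascular endothelial nuclei was at 35.6, 90.3, 37.7 and 30.4 CPM, and the running library was 2.54-fold above the sedentary one (1.90 to 3.42). Gbp6 was at 23, 50.5, 21.1 and 9.35 CPM, 2.20-fold higher with running (1.52 to 3.22). Gbp5 in endocardial nuclei was at 29.8, 66.1, 37.1 and 31.5 CPM, 2.22-fold higher (1.56 to 3.21). For each of these the running library was the highest of the 4. Gbp4 in endocardial nuclei was at 76.3, 222, 49.1 and 44.6 CPM. It was also 2.34-fold higher in lymphatic endothelial nuclei (1.55 to 3.64), at 34.4, 80.4, 26.9 and 40.4 CPM. Gbp4 in mural nuclei, at 16, 72, 15 and 17 UMIs, stayed under the entry limit for this comparison.

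**Figure D2:**
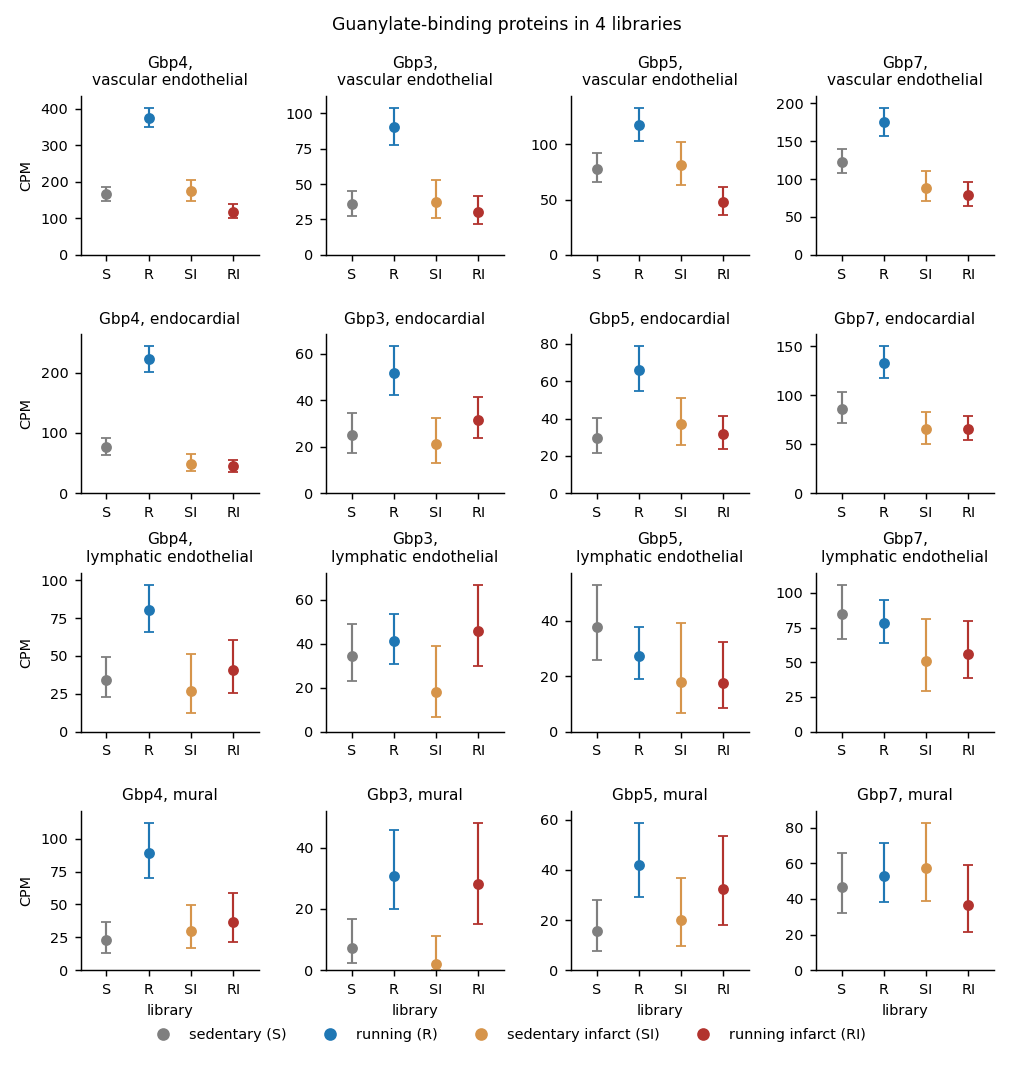
CPM of Gbp4, Gbp3, Gbp5 and Gbp7 (columns) in 4 cell classes (rows), 1 point per library with its exact Poisson 95% interval; each panel has its own axis from 0. The running library is the highest point in all panels of the vascular endothelial and endocardial rows, for example 375 CPM of Gbp4 in vascular endothelial nuclei, and not in all panels of the lymphatic endothelial and mural rows.

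The share of nuclei with a UMI moved with the level. After each nucleus was thinned to 1000 UMIs, Gbp4 was found in 12.6, 23.4, 11.7 and 11.5% of vascular endothelial nuclei, against 26.3, 43.6, 31.6 and 21.4% unthinned. Nuclei with too few UMIs were left out of thinned shares, unevenly over the libraries. They were 1, 1, 4 and 4 vascular endothelial nuclei, 7, 6, 5 and 28 endocardial nuclei and 21, 18, 25 and 101 cardiomyocytes. Its share in endocardial nuclei was 3.20, 15.0, 3.6 and 3.29%. In cardiomyocytes, taken as the background, thinned Gbp4 shares were 0.264, 0.472, 0.288 and 0.641%, at a median depth of 8413, 8459, 9517.5 and 3038 UMIs against 2732, 2999.5, 3013 and 2508 in vascular endothelial nuclei. The 10 vascular endothelial nuclei with most Gbp4 held 22.0% of its UMIs in the sedentary library and 13.3% in the running library. Such a share can fall merely because counts rise, so it does not show how the higher level was spread. Of 32 effector genes, at least 2 different ones had a UMI in 20.6, 35.1, 19.2 and 20.1% of thinned vascular endothelial nuclei (sedentary 17.5 to 23.9, running 31.6 to 38.9). In endocardial nuclei the same share was 11.6, 18.6, 5.86 and 9.37%.

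The ratio of running to sedentary was larger in Y-positive than in Y-negative nuclei for these genes, a difference that was not itself tested. Summed guanylate-binding proteins in vascular endothelial nuclei were at 431, 1166, 423 and 393 CPM in Y-positive nuclei and at 678, 829, 534 and 407 CPM in nuclei without a Y-linked UMI, which can include nuclei of males. In endocardial nuclei they were at 278, 762, 265 and 240 CPM in the first and 419, 472, 257 and 274 CPM in the second. Gbp4 in vascular endothelial nuclei was 4.06-fold higher with running in Y-positive nuclei (3.15 to 5.31) and 1.39-fold higher in Y-negative nuclei (1.14 to 1.69). Each library without infarct holds 2 hearts, so a difference between these nuclei cannot be told apart from a difference between hearts.

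**Figure D3:**
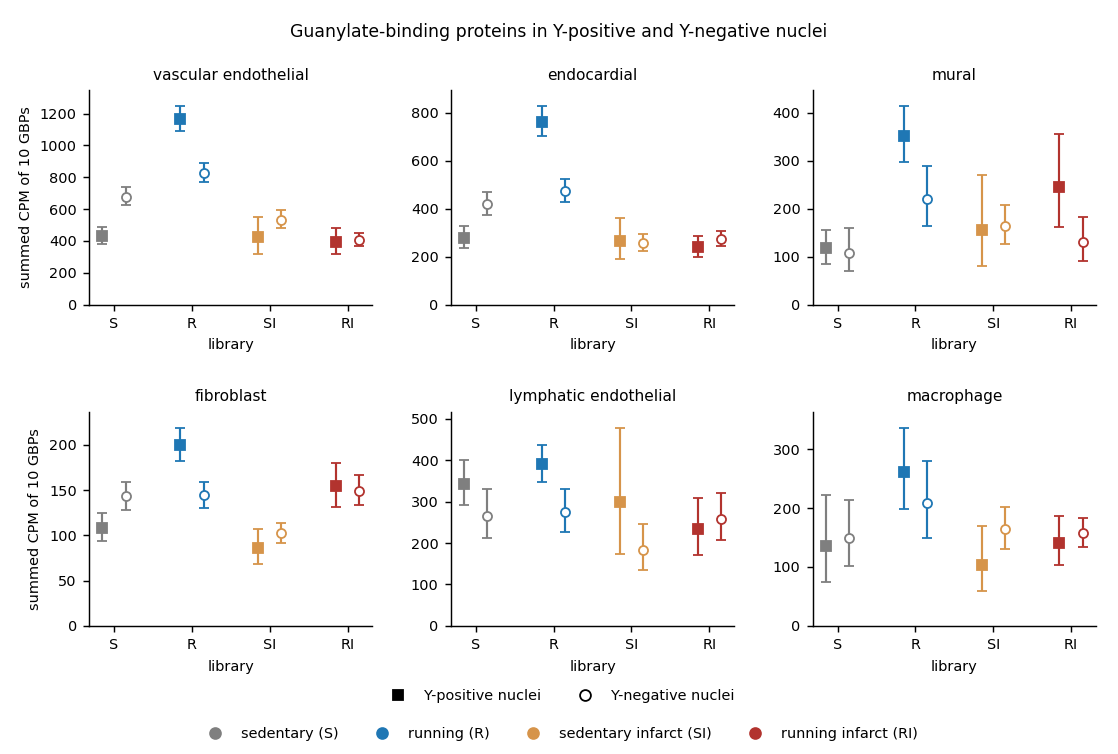
Summed CPM of the 10 guanylate-binding proteins in Y-positive nuclei (filled squares) and Y-negative nuclei (open circles) of 6 cell classes, 1 point per library with its exact Poisson 95% interval; each panel has its own axis from 0. In vascular endothelial nuclei the running library stands at 1166 CPM in Y-positive and 829 CPM in Y-negative nuclei, above 431 and 678 CPM in the sedentary library.

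Other measures moved with this comparison. The mitochondrial share of UMIs in vascular endothelial nuclei was 6.77% in the sedentary and 8.9% in the running library, and with nuclei above 5% left out the log2 ratio of Gbp4 was 0.84 in place of 1.17. In Y-negative nuclei alone it was 0.47. Gbp6 was at 0.47 under the mitochondrial limit and 0.23 in Y-negative nuclei, in place of 1.13, and Gbp3 at 0.76 and 0.72 in place of 1.34. In endocardial Y-negative nuclei Gbp4 was at 0.87 in place of 1.54 and Gbp5 at 0.32 in place of 1.15. The 9 T cell markers summed to 40.5, 94.2, 27.8 and 68.5 CPM in vascular endothelial nuclei, nearly all of it Cd247 (32.3, 82.9, 20 and 35 CPM), while Trac was at 0 in all 4 libraries and Cd3e had 0, 2, 0 and 0 UMIs. The part of these measures in the result was not tested.

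Of the ligands, Ifng, which encodes interferon gamma, had 0, 7, 3 and 4 UMIs over all nuclei, of which 0, 3, 2 and 2 were in T cells. Ifnk had 20, 18, 12 and 21 UMIs, and the other 9 ligand genes listed (Ifnb1, Ifne, 5 Ifna genes and Ifnl2 and Ifnl3) had 0 in every library. Of 10 listed genes for receptors and proximal signalling, 8 entered in vascular endothelial and 9 in endocardial nuclei, with 0 higher and 0 lower with running. Among all genes 3.48% were higher and 2.13% lower in vascular endothelial nuclei, and 3.20% and 2.47% in endocardial nuclei. With so few genes, counts of 0 lie near these shares. Ifngr1, a chain of the interferon gamma receptor, was at 110, 115, 113 and 81 CPM in vascular endothelial nuclei, and Ifnar2, of the receptor for interferons alpha and beta, at 96.4, 119, 130 and 134 CPM.

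Some of the other interferon-induced genes, listed apart from the 71, were higher as well. Of 34 listed, 22 entered in vascular endothelial nuclei, with 6 higher and 0 lower with running, against 3.48% and 2.13% of all genes, and a median log2 ratio of 0.23 against 0.02. In endocardial nuclei 16 entered, with 4 higher and 0 lower, against 3.20% and 2.47%, and a median of 0.25 against 0.00. Iigp1, an immunity-related GTPase, was at 290, 605, 248 and 190 CPM in vascular endothelial nuclei, 2.09-fold higher with running (1.88 to 2.31). In endocardial nuclei Iigp1 was at 97.8, 396, 79.1 and 63.7 CPM, 4.05-fold higher (3.38 to 4.88), and the ratio was 12.6 (8.27 to 20.0) in Y-positive and 1.26 (0.965 to 1.64) in Y-negative nuclei. Of 12 antigen presentation genes 10 entered in vascular endothelial nuclei, with 3 higher, among them the peptide transporter gene Tap1 at 27.4, 56.4, 28.9 and 28.8 CPM (2.06-fold, 1.47 to 2.93). H2-K1, a class I heavy chain, was at 466, 662, 437 and 294 CPM there, 1.42-fold higher (1.30 to 1.55).

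In the other 6 main classes fewer of the genes entered, fibroblasts apart. In fibroblasts 38 entered with 2 higher (Gbp4 and Ifit2) and 0 lower, against 2.35% and 1.47% of all genes, and in mural nuclei 10 entered with 2 higher (Parp14 among them) and 0 lower, against 4.14% and 2.33%. In lymphatic endothelial nuclei 18 entered with 1 higher (Gbp4) and 1 lower (Ifitm2), against 4.29% and 2.83%. Mesothelial nuclei had 7 that entered and 0 past the limit either way, against 4.23% higher and 4.79% lower. Macrophages had 11, with 3 higher (Stat2 and Rnf213 among them) and 1 lower (Ifi202b), against 3.68% and 2.95%. Cardiomyocytes had 15, with 3 higher (Stat2 and Trim30a among them) and 0 lower, against 3.89% and 2.09%. Stat2 in cardiomyocytes was at 16.1, 34.6, 30.3 and 32.2 CPM, 2.15-fold higher with running (1.68 to 2.76), and here the sedentary library was the one apart. With doublets kept, which also let mixed clusters take a name, that log2 ratio was 0.39 in place of 1.10. With mixed clusters named alone it was 0.47.

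Infarct was compared with no infarct in each arm, which asks how the genes stand 2 weeks after the injury. In fibroblasts Ifi204, Ifi205 and Ifi207 were lower and Ifitm10 was higher in both infarct libraries. Summed PYHIN UMIs in fibroblasts were at 829, 834, 510 and 533 CPM. In the sedentary arm 35 of the 71 genes entered, 2 were higher (Ifitm10 and Oas2) and 9 lower, against 6.39% and 7.61% of all genes, with medians of -0.37 and -0.02 on the log2 scale. In the running arm 37 entered, 3 were higher (Ifitm10, Oas2 and Ifit1) and 5 lower (Ifi204, Ifi205, Ifi207, Ifitm2 and Irf1), against 6.82% and 9.35%, with medians of -0.07 and -0.06.

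Ifi205, at 197, 198, 54.6 and 54.2 CPM in fibroblasts, was 3.61-fold lower after infarct in the sedentary arm (3.14 to 4.17) and 3.66-fold lower in the running arm (3.14 to 4.28). The libraries formed 2 pairs, infarcted and not, with the running and the sedentary library close in each. Ifi207 was 2.03-fold (1.82 to 2.28) and 3.03-fold lower (2.65 to 3.47). Ifi204, a relative of the human sensor IFI16, was at 76.4, 92.1, 47 and 50.6 CPM, 1.62-fold (1.37 to 1.93) and 1.82-fold lower (1.53 to 2.17). The fibroblast levels of Ifi203, by contrast, were 286, 254, 264 and 304 CPM, with no such division. Thinned to 1000 UMIs, Ifi205 was found in 15.4, 14.6, 4.71 and 4.27% of fibroblasts (37.3, 37.5, 16.8 and 15.4% unthinned), and in 0.528, 0.945, 0.288 and 0% of cardiomyocytes.

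Ifitm10 in fibroblasts went the other way. Its level was 3.93, 7.08, 71.3 and 126 CPM, from 20, 42, 320 and 447 UMIs, 18.2-fold higher after infarct in the sedentary arm (11.6 to 30.1) and 17.8-fold higher in the running arm (13 to 25.1). Every infarct library was far above every library without infarct. In endocardial nuclei the ratios of the same gene were 0.977 (0.797 to 1.2) and 1.48 (1.25 to 1.76), and in vascular endothelial nuclei it was at 70.1, 62.8, 38.9 and 18.7 CPM, 1.80-fold (1.23 to 2.70) and 3.36-fold lower (2.16 to 5.44). Its thinned share of fibroblasts was 0.705, 0.394, 5.15 and 7.33% (1.34, 2.23, 16.2 and 24.1% unthinned), against 0.132, 0.315, 0.288 and 0.962% of cardiomyocytes.

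The makeup of the fibroblast class moved with the infarct. Cluster 9, led by Col12a1 and Nox4, held 25, 26, 391 and 412 fibroblast nuclei, cluster 0 held 691, 763, 255 and 204, and cluster 1 held 690, 712, 243 and 112. Ifitm10 was at 132 and 197 CPM in cluster 9 of the infarct libraries and at 3.21 to 13.6 CPM in clusters 0 and 1 of all 4 libraries. Ifi205 was low in cluster 9, at 17.3, 7.69, 21.7 and 29.3 CPM, and it was also lower after infarct within cluster 0 (153, 142, 68.1 and 68.2 CPM) and within cluster 1 (267, 288, 127 and 167 CPM). Ifi207 in cluster 1 was at 254, 311, 253 and 240 CPM, with little difference between the libraries, and at 175, 172, 124 and 98.8 CPM in cluster 0.

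**Figure D4:**
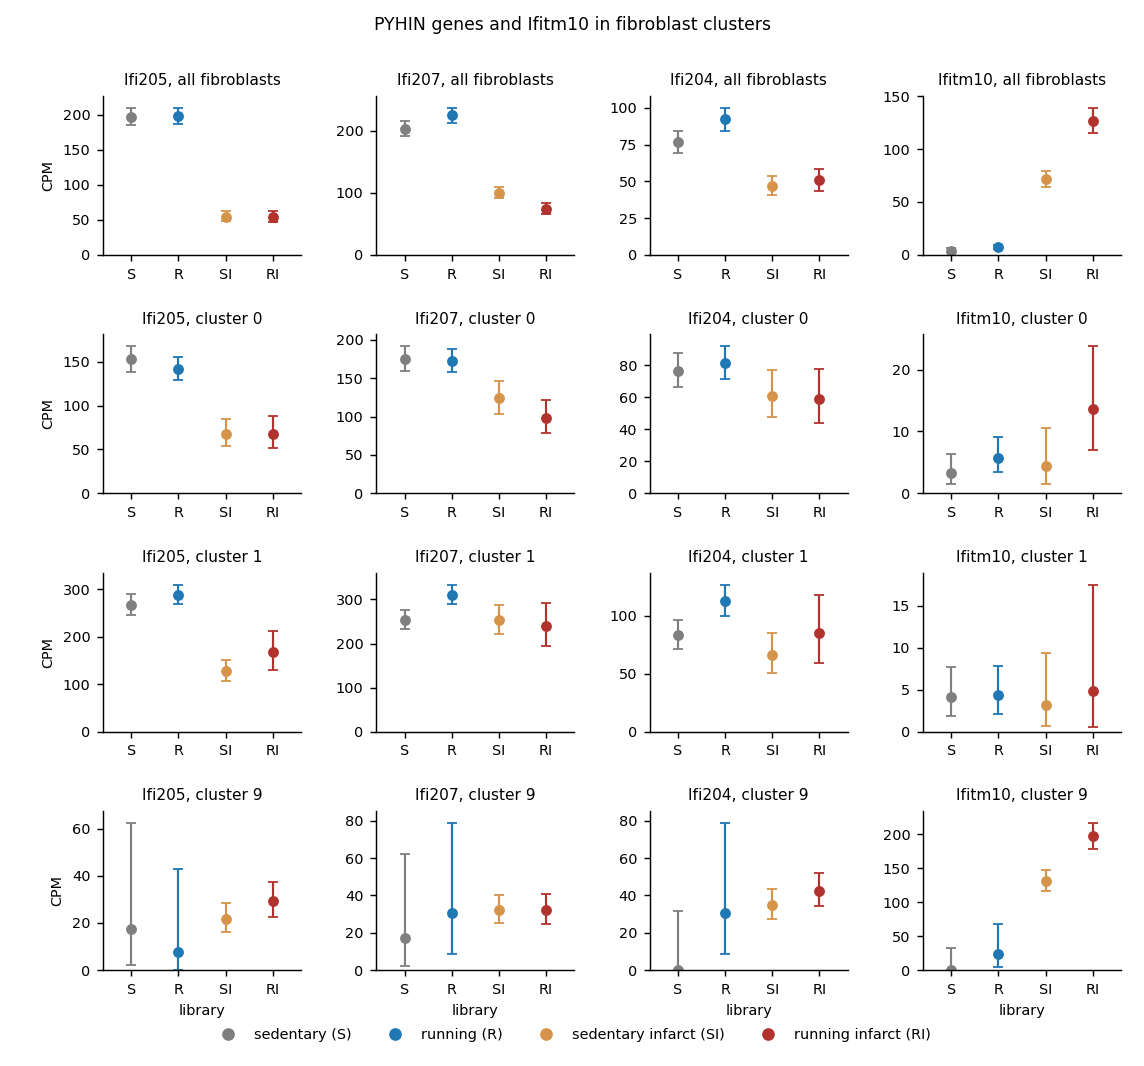
CPM of Ifi205, Ifi207, Ifi204 and Ifitm10 (columns) in all fibroblasts and in fibroblast clusters 0, 1 and 9 (rows), 1 point per library with its exact Poisson 95% interval; each panel has its own axis from 0. Ifi205 is lower in both infarct libraries within clusters 0 and 1, while Ifitm10 is high in cluster 9 of the infarct libraries (132 and 197 CPM), where the libraries without infarct rest on 25 and 26 nuclei.

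Of the other fibroblast genes, Oas2 was at 13.7, 16.5, 24.5 and 37.6 CPM, and 2.27-fold higher after infarct in the running arm (1.74 to 2.98). Ifitm2 was at 80.9, 60.5, 34.8 and 36.4 CPM, 2.33-fold (1.93 to 2.82) and 1.66-fold lower (1.35 to 2.05). Irf1 in fibroblasts was at 32.8, 39.3, 22.1 and 19.5 CPM, 2.02-fold lower in the running arm (1.53 to 2.68). In the Y-positive nuclei alone the log2 ratio of Ifi205 was -1.37 in place of -1.85 in the sedentary arm, that of Ifitm10 was 3.24 in place of 4.18, and that of Ifi207 was -0.67 in place of -1.02. With nuclei above 5% mitochondrial UMIs left out, the log2 ratio of Ifitm10 in the running arm was 2.96 in place of 4.16.

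Macrophages of the infarct libraries had less Ifi202b, a PYHIN gene tied to lupus in mice, and more Irf8. Ifi202b was 3.32-fold lower in the sedentary arm (2.44 to 4.57) and 2.50-fold lower in the running arm (1.89 to 3.30). Its level, at 282, 186, 84.9 and 74.5 CPM, was also 1.51-fold lower with running alone (1.15 to 2.00). Thinned shares of macrophages with an Ifi202b UMI were 19.8, 13.5, 10.0 and 5.64% (40.7, 27.1, 17.6 and 10.3% unthinned), and 0 of 1418, 1521, 912 and 750 fibroblasts had one, at median depths of 2705, 2798, 2969 and 2203 UMIs in macrophages and 3489, 4042, 4432.5 and 4349 in fibroblasts. The thinned shares leave out 19, 21, 17 and 99 macrophages with too few UMIs. Irf8 was 2.11-fold (1.43 to 3.17) and 1.65-fold higher (1.23 to 2.26). Irf5 was 2.04-fold higher in the sedentary arm (1.32 to 3.25), while in the running arm its ratio was 0.922 (0.695 to 1.23). Ifi203 in macrophages was at 545, 460, 335 and 358 CPM, 1.63-fold lower in the sedentary arm (1.36 to 1.96) and 1.29-fold lower in the running arm (1.10 to 1.5).

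In the sedentary arm 13 of the 71 genes entered in macrophages, with 3 higher (Irf5 and Irf8 among them) and 2 lower (Ifi202b and Ifi203), against 8.02% and 6.27% of all genes. In the running arm 24 entered, with 1 higher (Irf8) and 2 lower (Ifi202b and Ifitm2), against 8.53% and 7.02%. Named macrophages numbered 145, 192, 227 and 631. Cluster 8, led by F13a1, Cd163 and Mrc1, held a further 134, 208, 223 and 315 nuclei at a median of 15716.5 UMIs. It stayed unnamed as mixed, at a median doublet score of 0.104 where the limit was 0.1. The macrophage values therefore leave these nuclei out. Ccr2, a marker of cells derived from monocytes, was at 33.2, 57.8, 248 and 228 CPM among the named macrophages. The 6 B cell markers summed to 1117, 941, 413 and 420 CPM, of which Bank1 alone gave 1100, 921, 399 and 409 CPM. The part of a changed macrophage makeup in the values of Ifi202b and Irf8 was not tested. Keeping doublets also let mixed clusters take a name. The log2 ratio of Ifi202b was then -2.72 in place of -1.73 in the sedentary arm. In the running arm it was -2.23 in place of -1.32. In Y-positive nuclei alone the ratio of the sedentary arm was -0.81.

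Mesothelial nuclei had more PYHIN RNA after infarct, at a sum of 181, 185, 363 and 392 CPM. Ifi204 was at 35.4, 36.7, 85.1 and 112 CPM, 3.04-fold higher in the running arm (1.89 to 5.13), where its log2 ratio was 0.92 in Y-positive nuclei alone in place of 1.61. Ifi203 was at 114, 108, 192 and 199 CPM. Both infarct libraries were above both without infarct for either gene. Rnf213 was 1.70-fold higher in the running arm (1.44 to 2.02), and Oasl2 was 1.56-fold lower there (1.33 to 1.81). Oas2 was at 4.16, 12.2, 59.3 and 68.2 CPM, from 2, 7, 39 and 63 UMIs, too few to enter. Of the 71 genes 8 entered in the sedentary arm, with 1 higher (Ifi203) and 0 lower, against 9.56% and 7.77%, and 12 in the running arm, with 3 higher (Ifi203, Ifi204 and Rnf213) and 1 lower (Oasl2), against 9.22% and 8.09%.

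**Figure D5:**
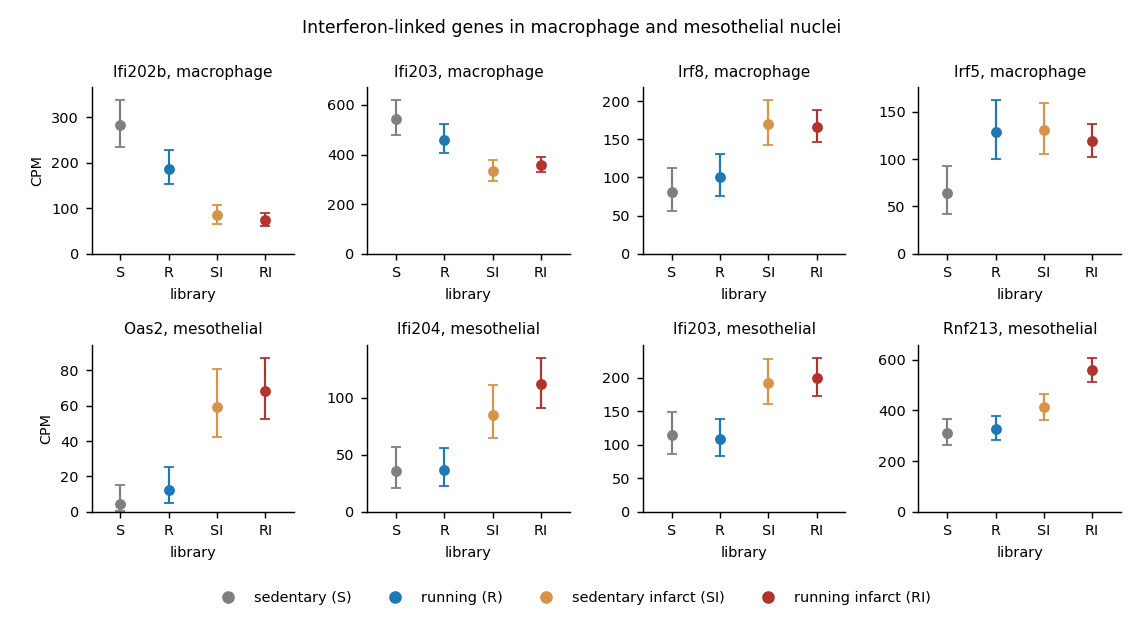
CPM of 4 genes in macrophages (top row) and 4 genes in mesothelial nuclei (bottom row), 1 point per library with its exact Poisson 95% interval; each panel has its own axis from 0. Ifi202b is at 282 CPM in the sedentary and 74.5 CPM in the running infarct library, and Ifi204 and Ifi203 in mesothelial nuclei are higher in both infarct libraries.

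Endothelial nuclei had lower guanylate-binding protein levels in the running infarct library than in the running library. In vascular endothelial nuclei 33 genes entered in the running arm, with 0 higher and 13 lower, against 5.59% and 9.31% of all genes, and medians of -0.44 and -0.06. In endocardial nuclei 27 entered, with 1 higher and 8 lower, against 5.40% and 11.7%, and medians of -0.38 and -0.12. Gbp4 was 3.17-fold lower in vascular endothelial (2.66 to 3.80) and 4.98-fold lower in endocardial nuclei (3.89 to 6.45). Gbp6 in vascular endothelial nuclei was 5.41-fold lower (2.97 to 10.8), Gbp3 2.97-fold (2.09 to 4.31) and Gbp5 2.47-fold (1.86 to 3.33). Outside the family, Ifit2 in vascular endothelial nuclei was 2.74-fold lower (1.67 to 4.71) and Ifitm3 2.42-fold lower (1.86 to 3.17). The 7 endocardial markers summed to 7334, 8432, 14756 and 20324 CPM in endocardial nuclei, and the part of this shift in the endocardial values was not tested. These values share the running library with the comparison of running and sedentary hearts, in which that library was the high one.

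In the sedentary arm fewer of the family members were past the limit. Of the 71 genes 26 entered in vascular endothelial nuclei, with 1 higher (Rsad2) and 4 lower (Bst2, Ifitm2, Ifitm3 and Ifitm10), against 5.92% and 7.20% of all genes. Gbp4 stood at 167 CPM without and 174 CPM with infarct. Ifitm3 was 1.61-fold lower (1.25 to 2.11), and Rsad2 was 1.89-fold higher (1.35 to 2.65). In endocardial nuclei 19 entered, with 0 higher and 2 lower (Gbp4 and Ifitm3), against 5.97% and 8.47%. The difference between the arms was not tested for any gene.

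Antigen presentation genes were also counted in the running arm. In vascular endothelial nuclei 9 of the 12 listed entered, with 8 lower and 0 higher, against 9.31% and 5.59% of all genes, and a median log2 ratio of -0.97 against -0.06. B2m, the light chain of class I molecules, was at 365, 425, 259 and 164 CPM there, 2.59-fold lower (2.22 to 3.02). Of the other interferon-induced genes listed, 20 entered there with 6 lower, against the same 9.31%, and Iigp1 was 3.19-fold lower in vascular endothelial (2.77 to 3.67) and 6.22-fold lower in endocardial nuclei (5.07 to 7.69).

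In cardiomyocytes 14 genes entered in the sedentary arm, with 1 higher (Stat2) and 1 lower (Ifitm2), against 5.66% and 5.45% of all genes, and 13 in the running arm, with 2 higher (Parp14 and Ifi203) and 1 lower (Gbp6), against 5.29% and 6.8%. Fibroblast markers in cardiomyocytes summed to 505, 625, 602 and 948 CPM, and the median depth of 3038 UMIs in the running infarct library compares with 8459 in the running one; their part in the values of Parp14 (16 and 27.8 CPM) and Ifi203 (14.9 and 23.4 CPM) was not tested. Irf2 in cardiomyocytes had ratios of 1.02 (0.93 to 1.13) and 1.06 (0.936 to 1.19). Mural nuclei had 5 that entered in the sedentary arm, with 1 lower, Irf2 at 296 and 195 CPM (1.52-fold, 1.19 to 1.95), against 4.27% higher and 5.88% lower of all genes, and 8 in the running arm, with 1 higher, Ifi27 at 61.9 and 126 CPM (2.03-fold, 1.37 to 3.02). Among all genes of mural nuclei in the running arm 7.36% were higher and 9.30% lower. Lymphatic endothelial nuclei had 9 that entered in the sedentary arm, 0 past the limit against 5.06% higher and 8.13% lower, and 15 in the running arm, with 1 higher (Rnf213) and 2 lower (Ifi204 and Gbp4), against 5.00% and 8.18%. Ifi204 in lymphatic endothelial nuclei was at 77.9, 85, 26.9 and 17.6 CPM, 4.83-fold lower in the running arm (2.53 to 10.4), and both infarct libraries were low.

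Infarcted hearts with earlier running were compared with infarcted sedentary hearts. Fibroblasts of the running infarct library had more of several interferon-induced genes: 32 entered, 6 were higher and 0 lower, against 2.09% and 2.12% of all genes, with medians of 0.23 and -0.02. The 6 were Gbp3, Gbp6, Gbp7, Ifit1, Ifitm10 and Oas2. Ifit1 in fibroblasts was at 10.8, 12.3, 7.36 and 19.5 CPM, 2.65-fold higher in the running infarct library (1.73 to 4.14). Gbp6 there was at 15.1, 18.2, 9.58 and 22 CPM, 2.30-fold higher (1.56 to 3.42), and Ifitm10 was 1.77-fold higher (1.53 to 2.05). For Ifit1 and Gbp6 the sedentary infarct library was the lowest and the running infarct library the highest of the 4. Cluster 9 made up 391 of 912 and 412 of 755 fibroblasts in these libraries, and its part in the ratios was not tested.

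The other classes are given by their counts. Vascular endothelial nuclei had 25 that entered with 0 higher and 2 lower (Gbp5 and Ifitm3), against 2.04% and 3.34%, and in endocardial nuclei 20 entered with 0 past the limit, against 2.30% and 4.83%. Macrophages had 24, with 2 higher (Usp18 and Oasl2) and 0 lower, against 2.67% and 3.21%. In macrophages Oasl2 was at 54.5, 95.1, 83.6 and 128 CPM. Mesothelial nuclei had 14 that entered and 0 past the limit, against 3.30% and 4.43%. Lymphatic endothelial nuclei had 5 with 1 higher (Rnf213), against 4.38% and 3.12%, and mural nuclei had 4 with 2 higher (Rnf213 and Ifi27), against 6.8% and 5.41%. In cardiomyocytes 7 entered, with Gbp6 at 25.6 and 17.1 CPM the 1 lower, against 3.59% higher and 3.32% lower. T cells could be compared only here, with 52 and 127 nuclei: 4 genes entered and 2 were higher (Trim30a and Rnf213), against 5.92% higher and 4.71% lower. Trim30a in T cells was at 94.2 and 243 CPM, 2.58-fold higher in the running infarct library (1.63 to 4.23).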

How the data were processed

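Nuclei were profiled in 1 library per group. The deposited matrices hold raw counts of UMIs per gene and barcode, made per the submitters' processing notes with Cell Ranger 7.1 on GRCm39. Barcodes were dropped below 300 genes or above 20% mitochondrial UMIs. The doublet caller's automatic limit marked 1, 0, 0 and 0 barcodes, so the highest scores were removed instead, at 0.8% per 1000 barcodes. Nuclei were clustered with scanpy 1.11.5 and leidenalg 0.10.2 (3000 variable genes, 40 components, 15 neighbours, resolution 1), leaving out the interferon-linked, mitochondrial and sex-linked genes, under Python 3.11.15. Each cluster was named for the marker list with the largest excess over the median cluster, given an excess of 1 or more and 3 detected markers. Low-depth, mixed (median doublet score of 0.1 or more) and unmarked clusters stayed unnamed. The mixed rule was lifted in the alternative with doublets kept, so that setting changed both the nuclei and the naming.

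Some choices followed a first look at the clustering: the median cluster as baseline, the joined mural class and the mixed limit. The 32 effectors were defined after the files were seen. The genes and lists were chosen with earlier results of these data known.

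CPM are UMIs scaled to a class total of 1000000 without mitochondrial genes. Levels carry exact Poisson, ratios exact conditional binomial and shares Clopper-Pearson intervals (95%, scipy 1.17.1). With 1 library per group there is no test and no p-value. A ratio counted from 100 UMIs over both libraries and 1.5-fold, and a count of 0 was read against a floor of 3. Levels are given for the 12 genes with most UMIs and the transcription factors. Some items of these lists are not reported here. Within a comparison, genes whose interval lay wholly beyond 1.5-fold were named, up to 12, filled to 3 by UMIs. Other genes named were chosen after their values were seen. Code was tested on simulated data. Alternatives covered cell filters, clustering, scaling (median-of-ratios and TMM factors), sex-linked subsets, entry and fold limits and thinning.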

Additional observations from a re-analysis of the deposited data

Results flagged for a closer look

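For 4 pairs of gene and class the running library lay above the sedentary library without infarct and below it with infarct. The difference between these ratios was not tested, since each group is 1 library. The pairs were picked without the entry limit of 100 UMIs. Of the infarct ratios only that of Gbp5 met it, while Gbp6 and Ifi207 in both classes rest on fewer UMIs. Ifi207 in mural nuclei was under the limit without infarct as well. How many of all genes have such opposite ratios was not counted. In vascular endothelial nuclei Gbp5 had a log2 ratio of running to sedentary of 0.59 without and -0.77 with infarct. Gbp6 in vascular endothelial nuclei had 1.13 and -1.17. Ifi207 in vascular endothelial nuclei had 0.68 and -0.87. Ifi207 in mural nuclei had 0.82 and -1.46.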

How the results depend on the processing

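No paired analysis was possible because each group is 1 library, and for the same reason no replicate could be left out. Counts here are pairs of gene and class past 1.5-fold; as reported they were 8 higher and 19 lower for sedentary infarct against sedentary, 12 and 32 for running infarct against running, 25 and 2 for running against sedentary, and 11 and 3 for running infarct against sedentary infarct, over the 8 main classes and without T cells. As reported, 129, 169, 157 and 131 pairs entered in these comparisons. The number that entered changed with the setting, so a smaller or larger count alone does not show a changed share. The share of all genes past the limit was not counted under the alternatives. None of the 39 named ratios reversed under the alternatives run for it. They were picked for intervals wholly beyond 1.5-fold, which made a reversal unlikely from the start. Outside their interval lay 14 of the 39 in Y-positive nuclei, 12 in Y-negative nuclei and 8 of 34 under the 5% mitochondrial limit. With doublets kept 3 did so, with mixed clusters named 3, and with nuclei weighted equally 2.

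For sedentary infarct against sedentary, the count higher was 2 with a 5% mitochondrial limit, 5 with doublets kept, 0 in Y-positive nuclei, 5 in Y-negative ones, 38, 0 and 97 with an entry of 20, of 500 and with no minimum, 3 at 2-fold and 4 with mixed clusters named. The count lower was 61 with doublets kept, 10 in Y-positive nuclei, 65, 5 and 100 over the entries, 5 at 2-fold and 59 with mixed clusters named.

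For running infarct against running, the count higher was 3 at 5%, 6 in Y-positive nuclei, 51, 1 and 105 over the entries and 5 at 2-fold. The count lower was 7 at 5%, 79 with doublets kept, 17 in Y-negative nuclei, 83, 5 and 121 over the entries, 19 at 2-fold and 77 with mixed clusters named.

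For running against sedentary, the count higher was 8 at 5%, 38 with doublets kept, 5 in Y-negative nuclei, 93, 3 and 147 over the entries and 10 at 2-fold. The count lower was 0 with at least 800 genes, 1 at resolution 0.5, 1 with nuclei weighted equally, 4 in Y-negative nuclei, 12, 0 and 43 over the entries and 0 at 2-fold.

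For running infarct against sedentary infarct, the count higher was 19 with doublets kept, 4 in Y-negative nuclei, 68, 1 and 130 over the entries, 2 at 2-fold and 17 with mixed clusters named. The count lower was 1 with either set of scaling factors, 5 with nuclei weighted equally, 1 in Y-positive nuclei, 21, 0 and 60 over the entries and 0 at 2-fold.

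Macrophages were the highest class for 16 genes with doublets kept and 14 with mixed clusters named, against 27. Thinned to 500 UMIs, Gbp4 was found in 8.27, 13.7, 5.58 and 7.0% of vascular endothelial nuclei, and 2 or more effectors in 11.0, 18.6, 8.92 and 6.56%. Fewer genes entered under the 5% limit, at 62, 47, 47 and 78 pairs in the order sedentary arm, running arm, running and infarct libraries, and more with doublets kept, at 202, 247, 235 and 186. In the same order 39, 75, 79 and 29 pairs entered in Y-positive nuclei and 82, 95, 84 and 96 in Y-negative ones. With mixed clusters named 190, 229, 219 and 176 entered. An entry of 20 gave 300, 358, 331 and 305 pairs, and one of 500 gave 24, 37, 40 and 26. No minimum gave 461, 488, 475 and 476. The cause of the other shifts was not tested. Of the named ratios, 6 came under 1.5-fold in Y-negative nuclei. Depth limits single genes in the small classes, and n = 1 limits every comparison.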
